A study of Mus musculus with 14 samples.

Results

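Fibronectin, the thrombospondins, the tenascins, periostin and its relative Tgfbi were described by 9 genes, Fn1, Thbs1, Thbs2, Thbs3, Thbs4, Tnc, Tnn, Postn and Tgfbi. They were chosen by gene name from the 30503 genes of the count table, and all 9 were among the 17358 genes that passed the filter on low counts and were tested. RNA was sequenced in 14 cultures, each grown from a single tdTomato+ skeletal cell of mouse femur marrow after the distal growth plate had been removed. The 5 Fgfr3-WT clones came from Fgfr3-creER; R26R(tdTomato/+) mice at P23 and were used at passage 8. The Fgfr3-p53 cKO clones came from Fgfr3-creER; Trp53fl/fl; R26R(tdTomato/+) mice, 5 at P28 (passage 8) and 4 at 4 months (P4M, passage 6 to 8), and all mice had received tamoxifen at P21. These passages are those recorded for the samples, while the paper's methods give passage 6 to 8 for cKO clones of both ages. Fgfr3-creER is a Cre recombinase driven by Fgfr3 that tamoxifen switches on, so that floxed Trp53 and the stop before tdTomato were recombined only in cells that used this driver at the pulse, and every group carried the driver, the reporter and the tamoxifen. Each library is 1 clone that outlasted serial passage. By the paper's account most P28 cKO clones reached passage 8 but only a minority of Fgfr3-WT clones did, so selection by passage differed between these groups. Clone numbers are running numbers within a group. The study counts each group's libraries as clones in one place and as mice in another, with no label that ties a clone to a mouse. The p values therefore measure the spread between clones.

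Fibronectin is secreted as a soluble dimer and is pulled by integrins into fibrils on which collagen and other proteins of the matrix are laid down. Thrombospondins, tenascins and the fasciclin-domain proteins periostin and Tgfbi are matricellular proteins, which bind matrix and cell-surface receptors and act more on cell behaviour than as structural parts. In bone they are known from periosteum, marrow stroma and healing fractures, and several are products of osteoblast-lineage cells and of tumour stroma.

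Total counts per library ranged from 25688946 to 38958693 in the Fgfr3-WT clones, from 37606033 to 48648618 in the P28 clones and from 43757832 to 52857424 in the P4M clones. The titles of all Fgfr3-WT libraries carry the number 1303 and those of all 9 cKO libraries 2963, and what these numbers mark is not stated, so that whatever they mark and the genotype cannot be told apart, while P4M and P28 libraries carry the same number. Trp53 had log2 fold changes of -4.48 and -4.71 in P28 and P4M against Fgfr3-WT (SE 0.15 and 0.17), with every cKO clone below every Fgfr3-WT clone. All 5 stromal markers were read in every group (summed level 431.3 to 2703 CPM). Of these Lum was called lower in all cKO against Fgfr3-WT (log2 fold change -5.62, adjusted p = 0.00453, edgeR) and none higher. Single markers varied widely, Col3a1 from 0.13 CPM in Fgfr3-WT clone 1 to 1727 CPM in P4M clone 3. The summed level of the 5 endothelial markers was 12.8 CPM or less, with Cdh5 at 0 in all 14 clones, and Kdr, the 1 of them that was tested, was called higher in all cKO against Fgfr3-WT (log2 fold change 4.59, adjusted p = 0.00372, edgeR). The 5 smooth muscle and pericyte markers summed to 106.1 to 652.7 CPM, with Mcam (4.71), Cspg4 (1.38) and Myh11 (1.48) called higher and Rgs5 (-4.86) lower. The 4 hematopoietic markers present in the table summed to 54.5 CPM or less, with Csf1r called higher and Cd68 lower, and of the 4 reticular and adipocyte markers tested 1, Lepr, was called higher. Lineage markers moved with the groups. The 6 osteoblast markers summed to 45.2 to 1337 CPM in the Fgfr3-WT clones, 14900 to 22150 CPM in P28 and 8934 to 54340 CPM in P4M, and 5 of the 6 were called higher in all cKO against Fgfr3-WT. The 5 chondrocyte markers summed to 741.8 to 22890, 171.2 to 1325 and 23.1 to 54.7 CPM, and 4 of the 5 were called lower. The part of these lineage differences in the results below was not tested, and in bulk RNA fewer cells of a type and less RNA per cell cannot be told apart.

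The first question was how Fgfr3-WT clones and cKO clones isolated shortly after the pulse (P28) or months later (P4M) differed in these matrix genes. All RNA was taken after serial passage of the clones, and not from cells shortly after the pulse. CPM stands for the count scaled to a fixed library total after TMM scaling, and a gene is called here at a Benjamini-Hochberg adjusted p under 0.05 over all tested genes in edgeR. In P28 against Fgfr3-WT 4 of the 9 genes were called, Thbs4, Tnc, Postn and Tgfbi, all higher. Of all tested genes 38.9% were called in that comparison and 19.2% were called higher. Thbs4, near 0 in the Fgfr3-WT clones, passed the filter through the cKO clones, and did not pass it in a fit of P28 and Fgfr3-WT alone. In P4M against Fgfr3-WT 5 of the 9 were called, against 45.9% of all tested genes. Thbs4, Tnc and Postn were the 3 called higher (22.3% of all tested genes) and Fn1 and Thbs1 the 2 called lower (23.6%). In P4M against P28, 1 of the 9 was called, Thbs1, which was lower, where 7.22% of all tested genes were called and 3.88% were called lower. With the mean of both cKO groups set against Fgfr3-WT, 5 of 9 were called (48.8% of all tested genes), Thbs4, Tnc and Postn higher (23.1%) and Fn1 and Thbs1 lower (25.7%). Counts in either direction were thus near the background in every comparison, and nothing particular to the 9 genes can be read from them. The median log2 fold change of the 9 genes was 2.83, 1.76, -0.63 and 2.0 in these 4 comparisons, beside -0.02, -0.06, -0.01 and -0.05 over all tested genes. Both comparisons with Fgfr3-WT share the same 5 control clones.

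**Figure D1:**
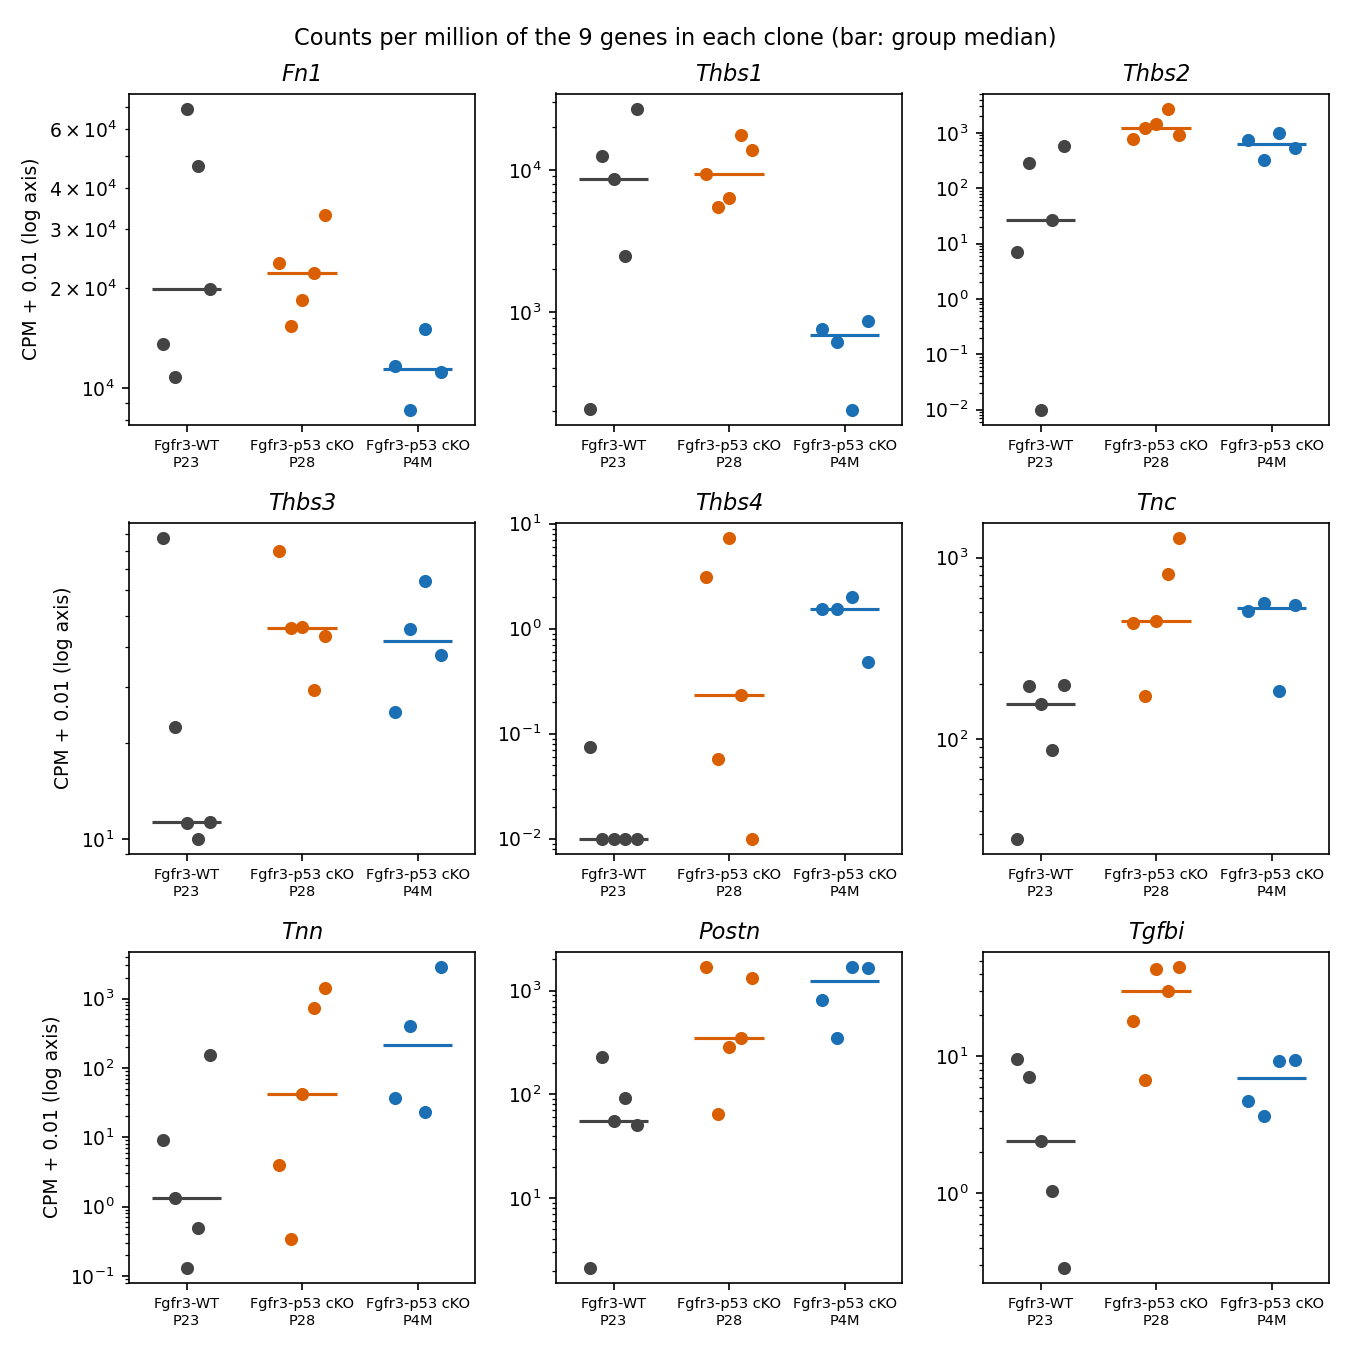
CPM in each clone, on a log axis after adding 0.01, with 1 panel per gene, 1 point per clone and a bar at the group median. Thbs2 stands higher in all 5 P28 clones than in any Fgfr3-WT clone, and Thbs1 stands at 859.5 CPM or less in all 4 P4M clones and at 5481 CPM or more in all 5 P28 clones.

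**Figure D2:**
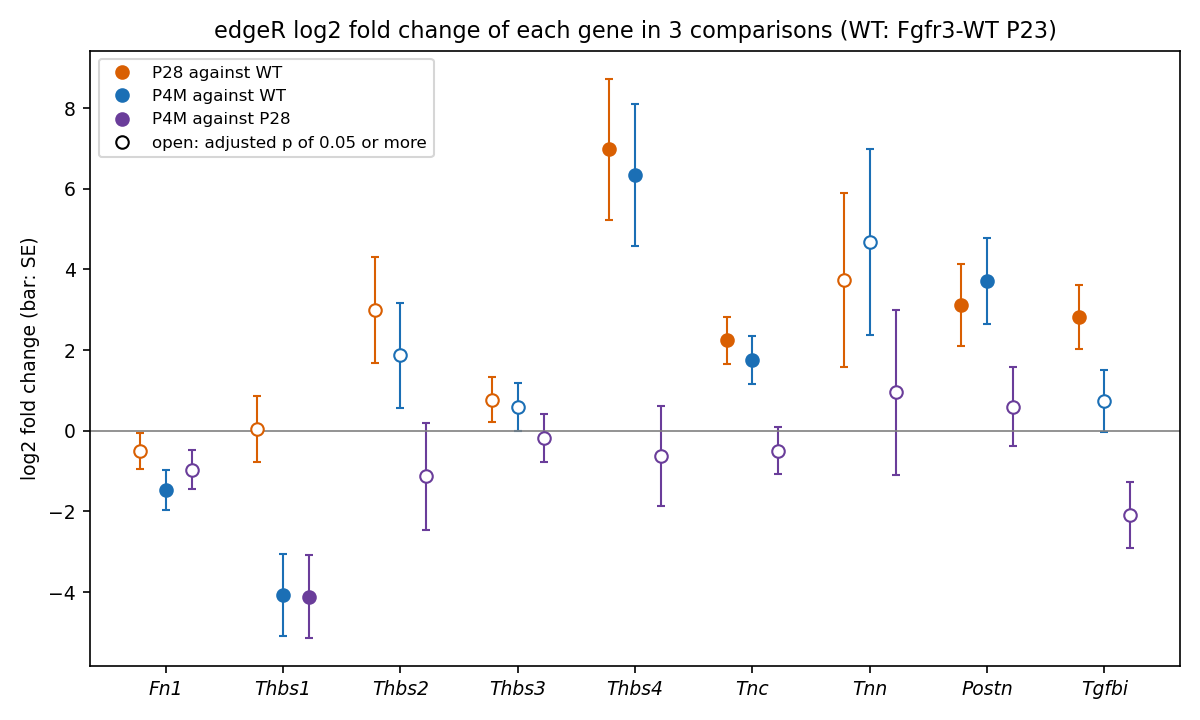
The log2 fold change of each gene from edgeR in 3 comparisons, with bars of 1 SE, filled where the adjusted p is under 0.05 and open elsewhere. Thbs4, Tnc and Postn are filled above 0 in both comparisons with Fgfr3-WT (5 clones), and Thbs1 is filled below 0 where P4M is set against either other group.

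The 250 bases before a RefSeq transcription start (GRCm38.p6) are shown for Thbs4, Tnc and Postn, because these are the members called higher in both cKO groups. Tnc and Postn have 2 promoter entries each, and the matches given below are those of the 1 window shown. Capitals mark exact matches on either strand to 5 words that were searched in the 7 members with a promoter entry, TATAAA (the TATA box), GGGCGG (the GC box), TGANTCA (AP-1), GGAATG (TEAD) and TGTGGT (RUNX). Postn lies on the plus strand and the other 2 on the minus strand, and each sequence is written 5' to 3' toward the gene.
Thbs4, chr13:92794819-92795068: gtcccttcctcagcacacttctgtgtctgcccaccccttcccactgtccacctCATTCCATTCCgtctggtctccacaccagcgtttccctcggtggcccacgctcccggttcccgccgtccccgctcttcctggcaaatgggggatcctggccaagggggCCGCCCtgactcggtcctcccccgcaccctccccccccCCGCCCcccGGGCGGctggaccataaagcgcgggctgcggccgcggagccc
Tnc, chr4:64047016-64047265: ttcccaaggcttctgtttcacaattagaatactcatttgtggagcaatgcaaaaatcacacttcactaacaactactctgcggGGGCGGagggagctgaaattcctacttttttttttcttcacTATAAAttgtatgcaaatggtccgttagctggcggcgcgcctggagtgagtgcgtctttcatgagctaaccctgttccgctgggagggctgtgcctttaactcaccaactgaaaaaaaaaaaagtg
Postn, chr3:54360857-54361106: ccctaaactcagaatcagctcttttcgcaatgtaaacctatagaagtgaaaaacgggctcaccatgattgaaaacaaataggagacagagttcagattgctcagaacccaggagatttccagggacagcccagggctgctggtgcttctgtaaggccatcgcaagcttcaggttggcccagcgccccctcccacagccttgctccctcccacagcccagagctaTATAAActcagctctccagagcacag
TATAAA began 26 bases before the start of Postn and 126 bases before that of Tnc, and it was found in the opposite strand of the Thbs2 window, 126 bases before the start, so that 3 of the 7 windows held it, while 12.4% of all 32851 promoter windows of this length did. GGGCGG occurred 3 times before Thbs4, from 89, 51 and 42 bases, and 1 time each before Tnc, Thbs3 and Tgfbi (32.7% of all windows). GGAATG occurred 2 times before Thbs4, in overlapping matches, and 1 time before Tnn (12.6%). Neither TGANTCA (6.75%) nor TGTGGT (14%) was found in the 7 windows. A match is a run of letters and not a measured site. Fn1 and Thbs1 were not among the 7.

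Fibronectin had the highest mean level of the 9 genes in each group (in TPM), although Thbs1 was above it in Fgfr3-WT clones 2 and 5, and it was lower in the late cKO clones than in the controls. Fn1 (ENSMUSG00000026193) lies on chromosome 1 of mm10 from 71585520 to 71653200, minus strand. It stood at 13530, 10760, 69310, 46700 and 19910 CPM in Fgfr3-WT clones 1 to 5, at 23820, 15370, 18400, 22200 and 33090 CPM in P28 clones 1 to 5, and at 11630, 8595, 15050 and 11130 CPM in P4M clones 1 to 4. Fgfr3-WT clones 3 and 4 were above every other clone, Fgfr3-WT clones 1 and 2 lay among the P4M clones, and the highest P4M clone was just under the lowest P28 clone. In P4M against Fgfr3-WT Fn1 fell by 1.47 on the log2 scale (SE 0.50, adjusted p = 0.0274, edgeR), and in P28 against Fgfr3-WT it differed by -0.51 (SE 0.45, adjusted p = 0.399). P4M against P28 gave -0.96 (SE 0.49, adjusted p = 0.232), although the groups did not overlap. The call against Fgfr3-WT was lost in 5 of 14 fits that left out 1 clone, without Fgfr3-WT clone 3 or 4 or without P4M clone 1, 2 or 4, with an adjusted p of up to 0.0763, and also with only these 2 groups in the fit (0.0630) and with limma on log2(TPM + 1) (0.0553). P4M against P28 passed with only these 2 groups in the fit (adjusted p = 0.0312). In all cKO against Fgfr3-WT it came to -0.99 (SE 0.39, adjusted p = 0.0499), and the call was lost in 10 of these 14 fits, with an adjusted p of up to 0.263, and in 6 of 8 other settings, other scaling among them.

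Among the thrombospondins, Thbs1 and Thbs2 form trimers and are inhibitors of angiogenesis that bind CD36 and CD47, and Thbs1 is also an activator of latent TGF-beta. Thbs1 was within the control range at P28 and low in every late clone. Thbs1 (ENSMUSG00000040152, chromosome 2 from 118111876 to 118127133, plus strand) was at 208, 12530, 8595, 2481 and 27100 CPM in Fgfr3-WT clones 1 to 5, at 9310, 5481, 6363, 17640 and 13720 CPM in the P28 clones and at 754.7, 615.7, 204 and 859.5 CPM in the P4M clones. Fgfr3-WT clone 1 lay among the P4M clones, the other Fgfr3-WT clones lay above all of them, and no P28 clone overlapped the P4M clones. Against P28, Thbs1 fell at P4M by 4.11 on the log2 scale, 17.3-fold (SE 1.02, adjusted p = 0.0305, edgeR). It fell by 4.07 in P4M against Fgfr3-WT (SE 1.02, adjusted p = 0.00586), a call that every fit without 1 clone left in place. The log2 fold change at P28 against Fgfr3-WT was 0.04 (SE 0.82, adjusted p = 0.970). The call against P28 was lost in 7 of 14 fits without 1 clone, those without P28 clone 1, 3 or 4 or any P4M clone, with an adjusted p of up to 0.0819, and without a filter on low counts (0.0562), while the log2 fold change stayed between -4.32 and -3.82 in the fits without 1 clone. In all cKO against Fgfr3-WT Thbs1 fell by 2.01 (SE 0.70, adjusted p = 0.0304), and without Fgfr3-WT clone 5 the log2 fold change was -1.24 (adjusted p = 0.156), the call being lost also without Fgfr3-WT clone 2 or P4M clone 2 or 3. It was lost too with the 9 cKO clones as 1 group (-0.76, adjusted p = 0.570), with limma on log2(TPM + 1) (-0.74, adjusted p = 0.516) and without a filter (adjusted p = 0.0599).

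Fn1 and Thbs1 were the members whose P4M and P28 clones did not overlap, both lower, a pattern found in the lower direction in 9.96% of all tested genes.

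Thbs2 differed most between control clones. Thbs2 (ENSMUSG00000023885, chromosome 17 from 14665500 to 14694235, minus strand) was at 6.94, 285.6, 0, 27.0 and 572.1 CPM in Fgfr3-WT clones 1 to 5, at 782, 1245, 1431, 2748 and 913.5 CPM in the P28 clones and at 731.6, 329.9, 1005 and 536 CPM in the P4M clones. All 5 P28 clones lay above all Fgfr3-WT clones, as was so for 13.0% of all tested genes in the higher direction, and 2 of the 4 P4M clones did. The log2 fold change was 3.0 at P28 (SE 1.31, adjusted p = 0.0849, edgeR) and 1.87 at P4M (SE 1.30, adjusted p = 0.257), so that neither passed the test in edgeR. P28 against Fgfr3-WT passed in DESeq2 (3.01, adjusted p = 0.0290) and on log2(TPM + 1) in limma (5.05, adjusted p = 0.00234), where P4M against Fgfr3-WT passed as well (3.76, adjusted p = 0.0178). Without Fgfr3-WT clone 5, the highest of its group, P28 against Fgfr3-WT passed at 4.15 (adjusted p = 0.0355), and it passed also without Fgfr3-WT clone 3, which held no Thbs2 count.

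Thbs1 and Thbs2 thus stood in a different proportion in each group. Thbs2 counts came to 3.34%, 2.28%, 0%, 1.09% and 2.11% of the Thbs1 counts in Fgfr3-WT clones 1 to 5, to 8.40%, 22.7%, 22.5%, 15.6% and 6.66% in the P28 clones and to 96.9%, 53.6%, 492% and 62.4% in the P4M clones. The 3 groups did not overlap, and the ratio does not depend on library scaling or, between groups, on gene length. In Fgfr3-WT clone 3 there was no Thbs2 count beside 212459 Thbs1 counts, which allows up to 0.00141% (3 counts, counting error only). Of the 36 ratios between 2 of the 9 genes this was the 1 for which all 3 groups stood apart, and it was picked after all 36 had been seen, so it is given without a test. Between the Fgfr3-WT and P28 medians Thbs2 went from 27.0 to 1245 CPM and Thbs1 from 8595 to 9310 CPM, and between the P28 and P4M medians Thbs2 went from 1245 to 633.8 CPM and Thbs1 from 9310 to 685.2 CPM.

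**Figure D3:**
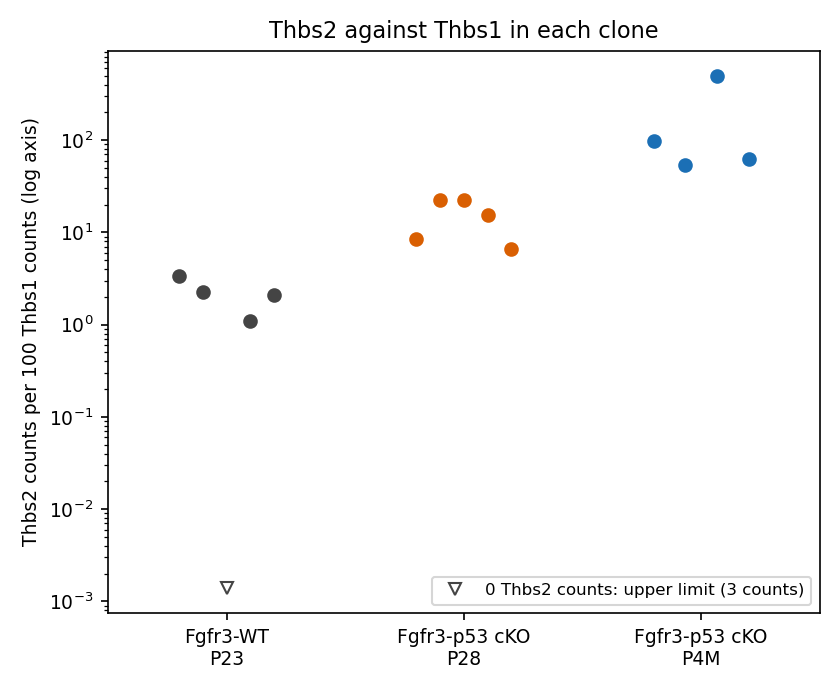
Thbs2 counts per 100 Thbs1 counts in each clone, on a log axis, with 1 point per clone and an open triangle at the upper limit of the Fgfr3-WT clone without a Thbs2 count. The Fgfr3-WT clones lie at 3.34 or less, the P28 clones from 6.66 to 22.7 and the P4M clones from 53.6 to 492.

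Thbs3 and Thbs4 are the pentameric thrombospondins, made in cartilage, tendon and muscle among other tissues. Thbs3 (ENSMUSG00000028047, chromosome 3 from 89215180 to 89226837, plus strand) was at 87.9, 22.4, 11.3, 10 and 11.3 CPM in Fgfr3-WT clones 1 to 5, at 79.8, 45.7, 46.1, 29.4 and 43.3 CPM in the P28 clones and at 25.0, 45.4, 64.4 and 37.7 CPM in the P4M clones. Fgfr3-WT clone 1 held the highest value of all 14, and each of the other 4 Fgfr3-WT clones lay below every cKO clone. With all clones Thbs3 was not called (log2 fold change 0.77, SE 0.57, adjusted p = 0.30 at P28, and 0.59, SE 0.59, adjusted p = 0.438 at P4M, edgeR). Without Fgfr3-WT clone 1 it was called higher in both, at 1.79 (adjusted p = 0.00216) and 1.64 (adjusted p = 0.00338). Thbs3 shares 318 exon bases with Mtx1 on the other strand. The paper counted only non-ambiguously mapped reads and does not state strand-aware counting, so whether reads there were left out or given to either gene cannot be told.

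Thbs4 (ENSMUSG00000021702, chromosome 13 from 92751590 to 92794818, minus strand) was nearly absent from the control clones and low in the cKO clones. It was at 0.065 CPM in Fgfr3-WT clone 1 and at 0 in the other 4, at 3.08, 0.048, 7.37, 0.22 and 0 CPM in the P28 clones and at 1.55, 1.55, 1.98 and 0.47 CPM in the P4M clones. The 4 P4M clones were above every Fgfr3-WT clone, whereas P28 clones 2 and 5 were not. Over each group the clones held 2 Thbs4 counts (Fgfr3-WT), 527 (P28) and 260 (P4M), which per total count is a ratio of 176.6 for P28 (exact 95% interval 48.7 to 1462) and 98.3 for P4M (26.9 to 815.8), intervals that cover counting error only. The edgeR log2 fold changes of 6.98 and 6.35 (SE 1.75 and 1.76, adjusted p = 0.00709 and 0.0104) rest on 2 control counts and depend on the prior count. On the scale of log2(TPM + 1), where limma was used, neither was called (adjusted p = 0.102 and 0.172). Thbs4 passed the filter on low counts through the cKO clones, and in a fit of the P28 and Fgfr3-WT clones alone it was filtered out.

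Among the tenascins, Tnc is laid down where tissue is remodelled and Tnn, also called tenascin-W, is known from bone and from tumour stroma. Tnc (ENSMUSG00000028364, chromosome 4 from 63959785 to 64047015, minus strand) was at 28.3, 196.5, 155.4, 87.1 and 199 CPM in Fgfr3-WT clones 1 to 5, at 435.5, 173.2, 445, 816 and 1288 CPM in the P28 clones and at 508.7, 558.7, 185.1 and 547.7 CPM in the P4M clones. In 7 of the 9 cKO clones it was above all Fgfr3-WT clones, P28 clone 2 and P4M clone 3 being the exceptions. Tnc rose by 2.24 on the log2 scale at P28, 4.74-fold (SE 0.58, adjusted p = 0.00846, edgeR), and by 1.76 at P4M, 3.38-fold (SE 0.59, adjusted p = 0.0275). The P28 call held in all 14 fits that left out 1 clone, and the P4M call was lost in 4, without Fgfr3-WT clone 4 or P4M clone 1, 2 or 4, with an adjusted p of up to 0.0610. P4M against P28 gave -0.49 (SE 0.59, adjusted p = 0.648).

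Tnn (ENSMUSG00000026725, chromosome 1 from 160085029 to 160153580, minus strand) had the largest SD of log2 CPM of the 9 genes in both cKO groups. It was at 9.25, 1.34, 0.12, 0.48 and 151.5 CPM in Fgfr3-WT clones 1 to 5, at 3.92, 0.33, 42.5, 717.9 and 1399 CPM in the P28 clones and at 36.6, 397.5, 23.0 and 2888 CPM in the P4M clones. All groups overlapped, Fgfr3-WT clone 5 lying above 3 P28 clones and 2 P4M clones. The log2 fold changes were 3.73 at P28 (SE 2.16, adjusted p = 0.189, edgeR) and 4.68 at P4M (SE 2.30, adjusted p = 0.112), and neither passed, while DESeq2 called P4M against Fgfr3-WT (4.69, adjusted p = 0.0329). Without Fgfr3-WT clone 5 they were 7.26 (adjusted p = 0.0374) and 8.21 (adjusted p = 0.0236).

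The Fgfr3-WT clone and the 2 P28 clones highest for Tnn were also the highest of their groups for Sp7 and Ibsp, which was not so for the highest P4M clone. Sp7, a transcription factor that osteoblasts need, was at 38.7 CPM in Fgfr3-WT clone 5 and at 0.19 CPM or less in the other 4, at 293 and 289.5 CPM in P28 clones 4 and 5 and from 3.38 to 9.78 CPM in the other 3, and at 381, 666.2, 132.3 and 441.1 CPM in the P4M clones. Ibsp, a bone matrix sialoprotein, was at 92.9 CPM in Fgfr3-WT clone 5 and at 0 in the other 4, at 444.8 and 147.5 CPM in P28 clones 4 and 5 and at 1.53 CPM or less in the other 3, and at 733.4, 1124, 49.8 and 282.2 CPM in the P4M clones. P4M clone 1 thus held high Ibsp beside 36.6 CPM of Tnn, and P4M clone 4, the highest for Tnn, held less Ibsp than P4M clones 1 and 2. Sp7 and Ibsp are the osteoblast markers with the highest r to Tnn over the 14 clones. Runx2 and Alpl had the same highest Fgfr3-WT and P28 clones. Col1a1 did not in P28, at 14680 and 17270 CPM in clones 4 and 5 beside 22010 and 20520 CPM in clones 1 and 3. Bglap was highest in Fgfr3-WT clone 4 (12.7 CPM, beside 3.72 CPM in clone 5). Over the 14 clones Pearson's r of log2 CPM with Tnn was 0.66 to 0.84 for the 6 osteoblast markers, and 0.46 (Alpl) to 0.79 (Runx2) after the group means were taken away. For the 5 stromal markers it was -0.42 (Prrx1) to 0.07 (Col3a1), and -0.63 (Prrx1) to 0.11 (Lum) within groups, and for the 5 chondrocyte markers -0.63 (Col9a1) to -0.06 (Matn3), and -0.50 (Matn3) to -0.29 (Sox9). High r with the osteoblast markers was not particular to Tnn. Over the 14 clones it ran from 0.61 (Bglap) to 0.82 (Alpl) for Tnc and from 0.53 (Col1a1) to 0.80 (Alpl) for Postn. For Thbs2 it ran from 0.43 (Bglap) to 0.75 (Col1a1), and for Fn1 from -0.52 (Col1a1) to -0.23 (Bglap). Within groups it reached 0.83 for Thbs1 and 0.76 for Tnc (both Alpl), and for Postn ran from -0.40 (Col1a1) to 0.53 (Alpl). Fgfr3-WT clone 1 was the lowest of its group for Alpl (0 CPM), Thbs1, Tnc and Postn. All these r are descriptions over clones whose groups also differ in library title number and lineage markers.

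**Figure D4:**
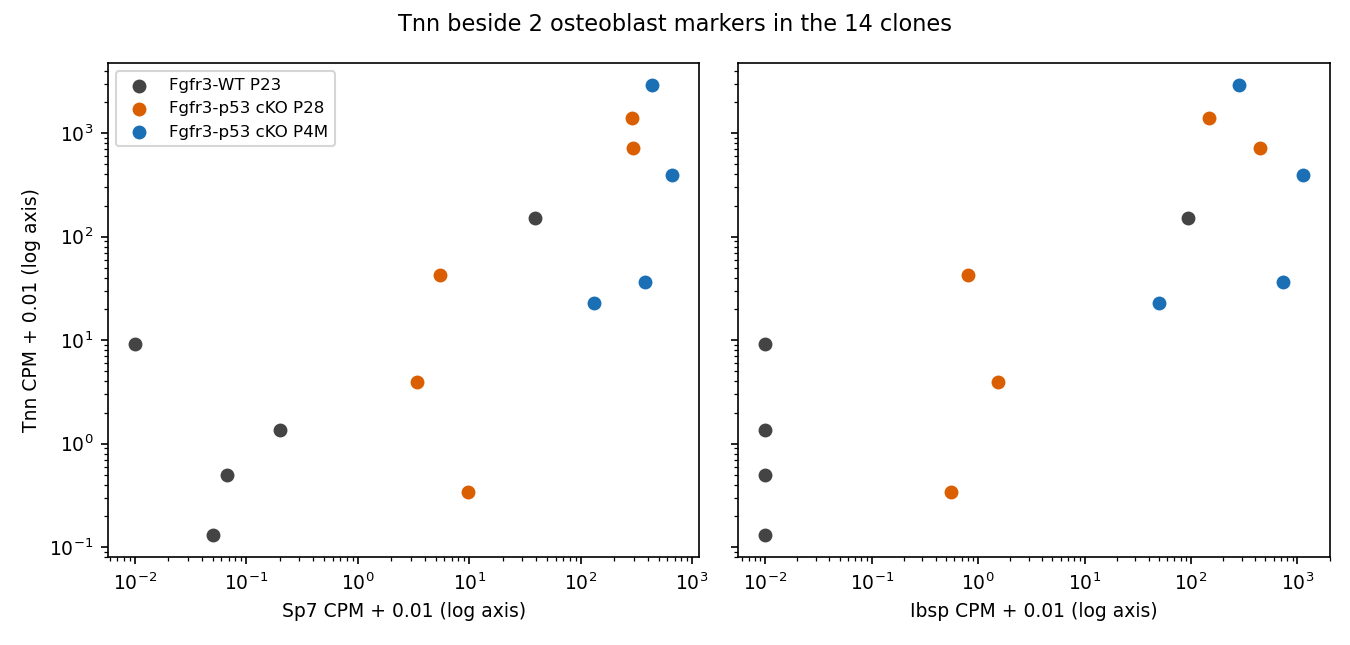
Tnn against Sp7 and Ibsp in the 14 clones, in CPM plus 0.01 on log axes, 1 point per clone and coloured by group. The 5 clones with Tnn above 100 CPM include Fgfr3-WT clone 5 at 38.7 CPM of Sp7 and 92.9 CPM of Ibsp, and the other 4 Fgfr3-WT clones sit at 0 CPM of Ibsp.

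Postn and Tgfbi carry fasciclin domains, and periostin is a product of the periosteum and of osteoblast precursors that helps collagen cross-linking. Postn (ENSMUSG00000027750, chromosome 3 from 54361109 to 54391037, plus strand) was at 2.12, 228, 55.1, 92.3 and 50.9 CPM in Fgfr3-WT clones 1 to 5, at 1701, 64.3, 283.3, 348.9 and 1316 CPM in the P28 clones and at 817.1, 346.3, 1705 and 1641 CPM in the P4M clones. All P4M clones were above all Fgfr3-WT clones, as were 4 of the 5 P28 clones, P28 clone 2 lying within the control range. Postn rose by 3.12 on the log2 scale at P28, 8.67-fold (SE 1.02, adjusted p = 0.0272, edgeR), and by 3.72 at P4M, 13.2-fold (SE 1.07, adjusted p = 0.0124). With Thbs4, it was 1 of 2 members whose P4M and Fgfr3-WT clones did not overlap in the higher direction, as was so for 17.8% of all tested genes. The P4M call held in every fit without 1 clone, and the P28 call was lost in 5 of them, without Fgfr3-WT clone 3, 4 or 5 or P28 clone 1 or 5, with an adjusted p of up to 0.0702, and also without a filter on low counts (0.0509) and with only these 2 groups in the fit (0.0523).

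Tgfbi is named for its induction by TGF-beta, and it was higher in the early cKO clones. Tgfbi (ENSMUSG00000035493, chromosome 13 from 56609523 to 56639562, plus strand) was at 9.48, 7.04, 2.39, 1.02 and 0.28 CPM in Fgfr3-WT clones 1 to 5, at 18.1, 6.74, 43.3, 30.0 and 45.2 CPM in the P28 clones and at 4.71, 3.69, 9.16 and 9.43 CPM in the P4M clones. In P28, 4 of 5 clones were above all Fgfr3-WT clones, while every P4M clone lay within the control range. Tgfbi rose by 2.83 at P28, 7.09-fold (SE 0.79, adjusted p = 0.0123, edgeR), and the log2 fold change at P4M was 0.74 (SE 0.78, adjusted p = 0.461). That difference between the late and early clones was itself tested, at -2.09 (SE 0.83, adjusted p = 0.132), and did not pass. With only the P4M and P28 clones in the fit it did (adjusted p = 0.0332), and in DESeq2 as well (0.0461). All cKO against Fgfr3-WT gave 1.78 (SE 0.70, adjusted p = 0.0502), and 4 of the other settings passed, DESeq2 (0.0126), limma (0.00937), RLE scaling (0.0497) and the 9 cKO clones as 1 group (0.0474).

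Levels of different genes were set side by side in TPM, which takes gene length into account. In the Fgfr3-WT clones the order of the group means was Fn1 (6968 ± 5457 TPM, SD, n = 5), Thbs1 (2503 ± 2679), Thbs2 (43.1 ± 61.4), Postn (41.7 ± 43.1), Tnc (26.6 ± 15.5), Thbs3 (25.4 ± 30.3), Tnn (8.08 ± 16.5), Tgfbi (2.25 ± 2.29) and Thbs4 (0.006 ± 0.013). Only the last step, from Tgfbi to Thbs4, separated neighbours whose ranges over the 5 clones did not overlap. In the P28 clones Fn1 (5533 ± 1668 TPM, SD, n = 5) and Thbs1 (3114 ± 1569) were followed by Postn (434.7 ± 418.1), Thbs2 (411.7 ± 234), Tnc (154.4 ± 108.3), Tnn (128.7 ± 184.6), Thbs3 (28.3 ± 9.93), Tgfbi (19.1 ± 11.2) and Thbs4 (1.23 ± 1.80). There the steps from Thbs1 to Postn and from Tgfbi to Thbs4 were free of overlap, while Fn1 exceeded Thbs1 in each of the 5 clones with overlapping ranges. In the P4M clones Fn1 (2435 ± 611.9 TPM, SD, n = 4) was followed by Postn (569.2 ± 337.7), Tnn (215 ± 356.7), Thbs2 (163.9 ± 72.8), Thbs1 (156.3 ± 74.5), Tnc (94.9 ± 37.6), Thbs3 (22.9 ± 8.38), Tgfbi (3.88 ± 1.75) and Thbs4 (0.67 ± 0.31). The ranges of Postn, Tnn, Thbs2, Thbs1 and Tnc overlapped from each to the next, although Postn was above Tnn and Thbs1 above Tnc in each of the 4 clones. The Postn range (168.8 to 858.3 TPM) lay wholly above that of Tnc (38.9 to 117.6 TPM). Fn1 ranked between 3 and 87 among all genes by TPM in the 14 clones.

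The 9 genes together came to 9618 ± 5481 TPM in Fgfr3-WT (SD, n = 5), 9825 ± 3452 in P28 (SD, n = 5) and 3661 ± 1025 in P4M (SD, n = 4), with ranges of 3011 to 17120, 5671 to 14110 and 2364 to 4501 TPM, so that the P4M sums lay below all P28 sums and within or below the control range. In make-up, Fn1 and Thbs1 together came to 95.7% to 99.6% of the sum in the Fgfr3-WT clones, 86.2% to 92.2% in the P28 clones and 58.5% to 79.3% in the P4M clones, ranges that did not overlap. Fgfr3-WT clones 2 and 5 were made up mostly of Thbs1 (53.4% and 59.6%), and Fgfr3-WT clones 1, 3 and 4 mostly of Fn1 (87.2% to 95.1%). Postn made up 2.02% or less of the sum in each Fgfr3-WT clone, 0.63% to 9.92% in the P28 clones and 7.14% to 19.2% in the P4M clones, the P28 range overlapping both others, while Tnn reached 16.6% in P4M clone 4. These shares are descriptions, since no test was made of a sum over genes chosen by name.

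**Figure D5:**
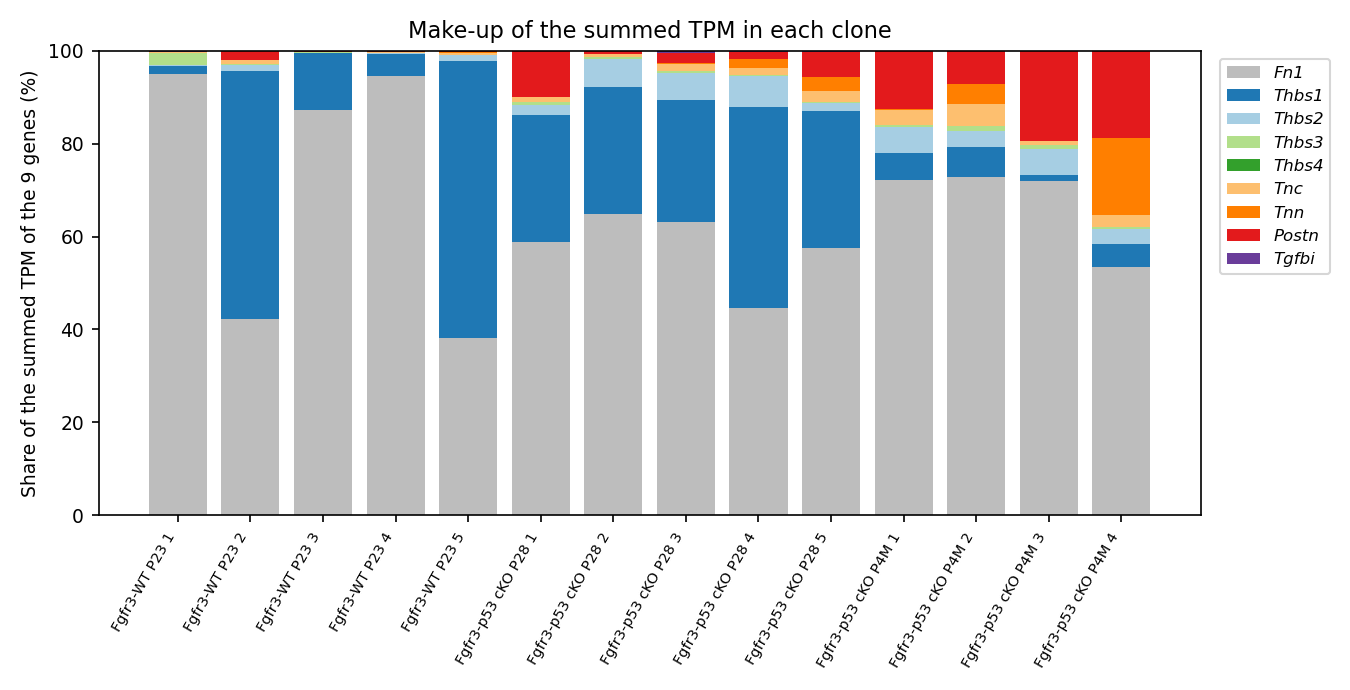
The share of each of the 9 genes in their summed TPM, 1 stacked bar per clone. The grey and dark blue parts (Fn1 and Thbs1) fill 95.7% or more of each Fgfr3-WT bar and 58.5% to 79.3% of the P4M bars, where the red part (Postn) reaches 19.2%.

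The spread between clones of 1 group was itself large. The pooled within-group SD of log2 CPM was 4.16 for Tnn, 3.28 for Thbs2, 2.0 for Postn, 1.98 for Thbs4, 1.78 for Thbs1, 1.43 for Tgfbi, 1.05 for Tnc, 0.90 for Thbs3 and 0.76 for Fn1, beside a median of 0.44 over all tested genes. All 9 thus lay above the median gene, and 99.8% of the tested genes lay below Thbs2. For Thbs1 and Thbs2 the spread sat in the Fgfr3-WT clones, with an SD of 2.75 and 5.37 there, beside 0.72 and 0.70 in P28 and 0.95 and 0.69 in P4M. For Thbs4 the P28 clones were the most spread (3.14, beside 0.54 in Fgfr3-WT and 0.88 in P4M). Its Fgfr3-WT clones lay at the floor, with 2 counts in clone 1 and 0 in the others, so the small SD there does not measure spread. The Thbs2 SD in Fgfr3-WT includes clone 3 at 0 counts, whose log2 CPM depends on the prior count.

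Pairs of members were described by Pearson's r of log2 CPM over the 14 clones, whose groups also differ in library title number and lineage markers. Tnc and Postn had an r of 0.80, and 0.65 after the group means were taken away. Thbs1 and Tnc had 0.35 over all clones and 0.86 within groups, and Thbs1 and Thbs3 had -0.45 and -0.75. These pairs were picked as the extremes after all 36 had been seen. Fgfr3-WT clone 1 was the lowest of its group for Thbs1 (208 CPM) and Tnc (28.3 CPM) and the highest for Thbs3 (87.9 CPM). How far the within-group r rest on this clone was not tested. Among 9660 genes of at least moderate level (mean log2 CPM from 3 upward), those most like each member were Txndc12 (r = 0.88) and Tdrd7 (0.87) for Fn1, Abat (0.94) and Amotl2 (0.93) for Thbs1, Ly75 (0.92) and Snrpb2 (0.91) for Thbs2, Zfp68 (0.93) and Tbl1xr1 (0.92) for Thbs3, and Cyth3 (0.85) and Vcan (0.85) for Thbs4. For Tnc they were Arf5 (0.96) and Hivep3 (0.94), for Tnn Acap3 (0.88) and Cux1 (0.88), for Postn Tbc1d1 (0.91) and Zfx (0.90) and for Tgfbi Exoc8 (0.91) and Upf1 (0.91). Within groups these r were 0.72 to 0.95. The genes were picked for the highest r over the same clones, so neither set of r is separate evidence of a link.

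Lists of related genes are read against the share of all tested genes called, which against Fgfr3-WT was 23.1% higher and 25.7% lower for all cKO, 19.2% and 19.7% for P28 and 22.3% and 23.6% for P4M, and for P4M against P28 was 3.34% and 3.88%. The other genes of the same families are the thrombospondin Comp, the tenascins Tnr and Tnxb, and Stab1 and Stab2, scavenger receptors with fasciclin domains. All 5 were tested, with 1 called higher in P28 against Fgfr3-WT (Tnxb, 2.02, adjusted p = 0.0165, edgeR) and 1 higher and 2 lower in P4M. In all cKO against Fgfr3-WT 1 was called, Stab1, which rose by 3.45 (adjusted p = 0.00103), and the other genes here are named after their values were seen. Stab1 rose by 5.43 in P4M against Fgfr3-WT (adjusted p = 0.000159), while Comp, the pentameric thrombospondin of cartilage, fell by 5.82 (adjusted p = 0.00874) and Stab2 by 2.26 (adjusted p = 0.00528). These 3 were called again between P4M and P28, Stab1 at 3.98, Comp at -7.16 and Stab2 at -3.12.

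Of the 15 receptors of the members 13 were tested, Itgb6 and the thrombospondin receptor Cd36 being too low. In all cKO against Fgfr3-WT 4 were called higher and 4 lower (23.1% and 25.7% of all tested genes), with a median log2 fold change of -0.17. Cacna2d1, a calcium channel subunit that binds thrombospondins, fell by 1.04 (adjusted p = 0.000472, edgeR), Sdc4, a syndecan that binds fibronectin, fell by 1.19 (adjusted p = 0.000562), and Itga9, an integrin subunit for tenascin-C, rose by 5.23 (adjusted p = 0.000621) from a mean of 0.21 CPM in Fgfr3-WT. P28 had 4 higher and 3 lower and P4M 3 higher and 4 lower. Between P4M and P28, 2 were called lower, named here after their values were seen, Itga5, which pairs with Itgb1 as the main fibronectin receptor, at -1.19 (adjusted p = 0.00895) and Itga8 at -5.52 (adjusted p = 0.0108). Cd47, a receptor of Thbs1, gave -0.17 (adjusted p = 0.312) in all cKO against Fgfr3-WT.

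All 16 genes of matrix assembly and cross-linking were tested, and in all cKO against Fgfr3-WT 5 were called higher and 2 lower (23.1% and 25.7% of all tested genes), with a median log2 fold change of 0.05. Loxl3 fell by 1.5 (adjusted p = 8.09e-05, edgeR), its fellow lysyl oxidase Loxl2 rose by 7.88 (adjusted p = 0.000126), from 0.46 CPM, and Bmp1, the procollagen protease that periostin binds, rose by 2.29 (adjusted p = 0.000139). P28 had 7 higher and 2 lower and P4M 5 higher and 3 lower, and in P4M against P28 Emilin1 (-1.10, adjusted p = 0.0208) and Ltbp2 (-4.48, adjusted p = 0.0235) were the 2 called lower, named after their values were seen.

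Of the 10 other matricellular proteins, 1 was called higher and 6 lower in all cKO against Fgfr3-WT (23.1% and 25.7% of all tested genes), with a median log2 fold change of -2.09, and 4 of the 10 had values above 0 (Sparc, Ccn1, Ccn3 and Ccn4). Spp1 (osteopontin) fell by 1.84 (adjusted p = 0.000227, edgeR), Ccn2 by 4.33 (adjusted p = 0.000238) and Smoc2 by 2.73 (adjusted p = 0.000315), and the 1 that rose was Ccn4, by 2.5 (adjusted p = 0.000340). P28 and P4M each had 1 higher and 5 lower. In P4M against P28 their log2 fold changes ran from -3.94 for Sparcl1 (adjusted p = 0.0665) to 1.0 for Spp1 (adjusted p = 0.0963).

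All 15 genes of TGF-beta signalling were tested, and in all cKO against Fgfr3-WT 11 were called higher (23.1% of all tested genes), with a median log2 fold change of 0.84. Smad7, an inhibitor that the pathway induces, rose by 1.40 (adjusted p = 0.000125, edgeR), Ski, a repressor of it, by 1.04 (adjusted p = 0.000277) and Smad2, which carries the signal, by 0.72 (adjusted p = 0.000506). P28 had 8 higher, and P4M had 9 higher and 1 lower, Tgfbr3. In P4M against P28 3 were called higher, Tgfb1 at 1.42 (adjusted p = 0.0157), Smad7 at 1.53 (adjusted p = 0.00430) and Skil at 1.87 (adjusted p = 0.0107), all named after their values were seen. Tgfbi was not called in the same comparison (-2.09, adjusted p = 0.132).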

How the data were processed

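The authors isolated RNA from 14 cultured clones, made libraries with the SMART-Seq v4 kit, aligned reads to mm10 with TopHat and Bowtie2 and counted them with HTSeq, per their methods and processing notes. The deposited counts are whole numbers per gene, not normalized, for 30503 genes. The deposited TPM values, normalized by the authors for gene length and depth, were used for levels between genes. Depth-normalized, rlog, FPKM and expected count tables were not used. Whether counting used strand is not given in the sources used here.

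Counts were tested in edgeR 4.0.16 (R 4.3.3) by the quasi-likelihood F-test on all 14 clones with 3 group means, after filterByExpr (17358 genes kept) and TMM scaling, with Benjamini-Hochberg adjustment over all tested genes. The steps were tested on simulated data. All cKO is the mean of both cKO group means. Alternatives were DESeq2 1.42.0, limma 3.58.1 on log2(TPM + 1), RLE or no scaling, other filters, fits with only the groups compared or with the 9 cKO clones as 1 group, a minimum absolute log2 fold change of 1, and leaving out each clone. Likeness is Pearson's r of log2 CPM (prior count 2). Coordinates are those of GENCODE M21, and promoters came from RefSeq (7 of 9 genes matched). Tables and figures used Python 3.11.15, pandas 2.3.3 and matplotlib 3.10.9.

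The 9 genes and all gene lists were chosen with earlier results of these data known. All 9 genes are described in every clone, and from each list up to 3 called genes with the lowest p in all cKO against Fgfr3-WT are named, and for each of the 9 genes the 2 most like it.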

Additional observations from a re-analysis of the deposited data

Results flagged for a closer look

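Of the 27 sets of clones examined (9 genes in 3 groups), 5 held a clone whose gap to its nearest neighbour was too wide for the range of its group by Dixon's test at 95%. Chance alone gives about 1 in 20 where values are normally distributed. The test was made on CPM, which spans orders of magnitude within a group for several of these genes, so no excess over that rate can be read from the flags. For Thbs4 the flag was fixed in advance, since beside 4 clones at 0 any count gives it, which leaves 4. Among the Fgfr3-WT clones these were Thbs3 in clone 1 (87.9 CPM, the others at 22.4 or less), Thbs4 in clone 1 (0.065 CPM, the others at 0) and Tnn in clone 5 (151.5 CPM, the others at 9.25 or less). Among the P4M clones they were Tnc in clone 3, the lowest at 185.1 CPM beside 508.7 or more, and Tnn in clone 4, the highest at 2888 CPM beside 397.5 or less.

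Thbs1 was lower in the P4M than in the P28 clones. With the same Fgfr3-WT clones as control for both, the difference between its log2 fold changes is the P4M against P28 contrast itself, -4.11 (SE 1.02, adjusted p = 0.0305, edgeR), and all 4 P4M clones lay below all 5 P28 clones. The call was lost in 7 of 14 fits without 1 clone (adjusted p up to 0.0819). No Fgfr3-WT clone was from 4 months, and passage as recorded for the samples also differed (6 to 8 beside 8), so age and passage cannot be told apart. The paper's methods give passage 6 to 8 for cKO clones of both ages.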

How the results depend on the processing

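No paired analysis was possible because the labels give no replicate numbers and the clone numbers only name the clones. Members called over the fits that left out 1 clone numbered 3 to 5 (P28 against Fgfr3-WT, 4 with all clones), 3 to 6 (P4M against Fgfr3-WT, 5), 0 to 1 (P4M against P28, 1) and 3 to 7 (all cKO, 5). All genes called in P4M against P28 numbered 480 to 2132 in those fits (1254 with all clones), the lowest without P4M clone 1 and the highest without Fgfr3-WT clone 1. For P28 against Fgfr3-WT, 2 members were called with at least 10 counts required in every clone, which left 5 members tested. When the fit held just the groups compared, 2 were called and 8 tested, Thbs4 being filtered out. For P4M against P28, no filter gave 0 members (Thbs1 adjusted p = 0.0562, with 2 members at an unadjusted p under 0.05, as against 1 or 2 in the 7 fits without 1 clone that also gave 0 in edgeR), only the groups compared gave 3 members and 3051 genes, and DESeq2 gave 2 members and 2814 genes. For all cKO, no filter gave 3 members and DESeq2 8. A minimum absolute log2 fold change of 1 left 4040, 5149 and 4723 genes called in P28, P4M and all cKO against Fgfr3-WT. Where no cause is named here, the cause was not tested.

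Log2 fold changes that reversed were all of genes not called and came from leaving out 1 clone. For Thbs1, P28 against Fgfr3-WT, those fits ranged from -0.30 to 0.82 and were below 0 without Fgfr3-WT clone 1, 3 or 4 or P28 clone 4 or 5. In P4M against P28 they ranged from -0.44 to 0.087 for Thbs3 (above 0 without P28 clone 1 or P4M clone 1), from -0.92 to 0.76 for Thbs4 (above 0 without P28 clone 3) and from -1.5 to 2.12 for Tnn (below 0 without P4M clone 4). Of the values of single members, 688 kept direction and side of the threshold, 26 newly passed, 52 no longer passed and 9 reversed. Without scaling, 400 genes were called higher and 805 lower in P4M against P28 (580 and 674 with TMM). With limma on log2(TPM + 1) the splits were 5141 and 1938 for P28 against Fgfr3-WT (3336 and 3414 in edgeR), 4213 and 3120 for P4M against Fgfr3-WT (3873 and 4096), 376 and 1194 for P4M against P28, and 5266 and 2918 for all cKO (4014 and 4453), with the median of all genes at 0.20, 0.05, -0.14 and 0.13. The precision of the Thbs4 fold changes is limited by its 2 counts over all Fgfr3-WT clones.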
